A study of Mus musculus with 12 samples.

Results

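Repeated long FGFR1 HiChIP loops are pairs of chromatin anchors, 100 kb to 2 Mb apart on the same autosome, that were joined by at least 3 read pairs after pull-down with an FGFR1 antibody. They were chosen by this score (the number of read pairs between both anchors) and by the distance between anchor midpoints. In ESCs, 3306 of 635350 FGFR1 HiChIP interactions in this distance range met the rule (0.520%), and in NCCs 3930 of 769055 (0.511%), which gives 7236 loops. The FGFR1 tables hold 1930320 ESC and 2401031 NCC interactions of any kind.

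The study followed chromatin contacts from embryonic stem cells (ESCs) to neural committed cells (NCCs). All samples come from mouse E14Tg2A cells. ESCs were kept with 100 U/mL LIF, a cytokine that keeps mouse ESCs undifferentiated, and NCCs were obtained from them with 1 μM retinoic acid in LIF-free medium for 48 h. Each cell type had 6 samples, 2 biological replicates each of Hi-C, which captures contacts genome-wide, of FGFR1 HiChIP (antibody ab10646) and of CTCF HiChIP (antibody ab70303), which enrich contacts of chromatin bound by the named protein. All samples of both groups were fixed with formaldehyde, and beyond LIF and retinoic acid the labels give no difference between the groups. The identity of both cell types could not be checked against marker genes, because RNA was not analysed here.

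The deposited tables hold both replicates merged, which leaves 1 pooled library per cell type and assay, without an estimate of the spread of replicates. All intervals are exact 95% intervals that treat read pairs as independent, and they cover counting error only. A difference between them compares these pooled libraries and not the conditions. Loops that overlap the same anchors of a library count its read pairs more than once, and the intervals do not allow for this. In the range of 100 kb to 2 Mb on autosomes, the ESC libraries hold 5223480 (Hi-C), 671858 (FGFR1 HiChIP) and 274370 (CTCF HiChIP) read pairs. The NCC libraries hold 5184149, 812602 and 256489, in the same order. The CTCF libraries are thus the shallowest, and most loops had no CTCF read pair.

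FGFR1 is a receptor tyrosine kinase for fibroblast growth factors, and a form of it found in the nucleus (nFGFR1) binds chromatin together with partner proteins. CTCF is a zinc finger protein that binds a non-palindromic DNA motif and halts the loop-extruding cohesin complex, and loops held in this way mostly have motifs that point toward each other (convergent). Loops between gene promoters and distal elements form and dissolve as cells differentiate, and silent developmental genes of ESCs contact each other within Polycomb-bound chromatin.

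The sequences below are the CTCF consensus matches at the anchors of convergent FGFR1 loops of Psen2 and Sdk2, chosen for high FGFR1 scores, from the mm10 genome (GRCm38). Each is printed 5′ to 3′ on the strand of its match, with the match in capitals and 40 bases on each side, and the loops are described further on. The consensus was searched on both strands. It was found in 4640 of 200702 ESC FGFR1 anchors (2.31%) and in 4702 of 223460 NCC anchors (2.10%). Among the anchors of the loops, it was found in 484 of 5743 in ESC (8.43%) and in 526 of 6821 in NCC (7.71%). A match is a stretch of sequence, not a measured binding site, and an anchor without a match was not shown to lack one.
Psen2 anchor, chr1:180268723-180268814, + strand: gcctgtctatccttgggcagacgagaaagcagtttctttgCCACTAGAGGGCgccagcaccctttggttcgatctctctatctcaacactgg
Itpkb anchor, nearer match, chr1:180407231-180407322, − strand: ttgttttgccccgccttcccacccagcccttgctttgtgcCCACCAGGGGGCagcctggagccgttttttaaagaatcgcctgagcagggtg
Itpkb anchor, farther match, chr1:180422273-180422364, − strand: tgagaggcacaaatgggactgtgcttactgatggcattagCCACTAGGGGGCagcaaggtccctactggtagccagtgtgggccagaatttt
Cpsf4l anchor, chr11:113703868-113703959, + strand: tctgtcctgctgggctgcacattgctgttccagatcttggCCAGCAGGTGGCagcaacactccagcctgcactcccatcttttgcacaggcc
Sdk2 anchor, chr11:113812092-113812183, − strand: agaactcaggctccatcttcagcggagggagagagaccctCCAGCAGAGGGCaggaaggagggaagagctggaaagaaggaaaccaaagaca

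The left match of each of these loops lies on the + strand and the right match on the − strand, so that they point toward each other. By the GENCODE vM21 annotation, the match of the Psen2 anchor is intergenic, and the matches on the Itpkb side lie in an intron and in an exon of that gene. The Cpsf4l and Sdk2 matches lie in introns of these genes.

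Most loops had a score at the threshold. In ESC, 2693 loops had a score of 3, 461 a score of 4 and 152 a score of 5 or more, with a highest score of 15. In NCC, these numbers were 3235, 513 and 182, with a highest score of 11. Just below the threshold, 29016 ESC and 34689 NCC interactions had a score of 2, and 603028 and 730436 a score of 1. The loops held 10798 FGFR1 read pairs in ESC and 12788 in NCC, or 1.61% and 1.57% of all those in the distance range. Relative to depth, loops were about as frequent in ESC as in NCC.

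The loops were short for their range. The median distance was 158 kb in ESC (quartiles 123 and 224 kb) and 163 kb in NCC (124 and 236 kb), while interactions of score 1 had a median of 348 and 366 kb. Between 100 and 200 kb lay 2257 ESC and 2595 NCC loops, between 200 and 500 kb 957 and 1170, between 500 kb and 1 Mb 83 and 138, and only 9 and 27 were 1 Mb or longer. Part of this follows from the rule, because read pairs become fewer with distance and a fixed score is reached more often at short range.

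**Figure D1:**
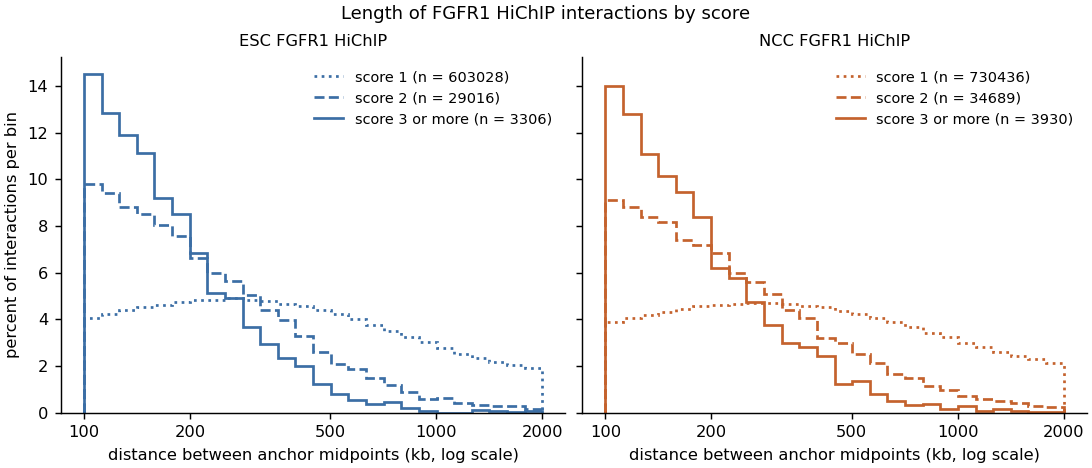
Distance between anchor midpoints (kb, log scale) of FGFR1 HiChIP interactions in ESC (left) and NCC (right), as a percent of the interactions of each score class per bin. The curves for a score of 3 or more crowd toward 100 kb, with medians of 158 kb in ESC and 163 kb in NCC, while those for score 1 spread to 2 Mb.

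The anchors were longer than usual, and most took part in a single loop. Their median length was 4468.5 bp in ESC and 4726 bp in NCC, against 3001 and 3220.5 bp for score 1. Of the 5743 distinct ESC anchors, 5108 (88.9%) took part in a single loop, and of the 6821 NCC anchors 6034 (88.5%). At most 7 loops met at an anchor in each cell type, and no expected rate of reuse was taken. Busy anchors were frequent at the loops. An anchor among the 1% with the most read-pair ends lay in 33.5% of ESC loops and 30.3% of NCC loops. At score 1, these shares were 5.67% and 5.47%. The ends were counted in the same FGFR1 library that set the score, so part of this follows from the rule. Since busy anchors were frequent, Hi-C and CTCF HiChIP are given below over an expectation from distance alone and over one from distance and anchor coverage. The coverage used is that of the Hi-C or CTCF HiChIP anchors themselves.

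Few loops were repeated in both cell types. Of the ESC loops, 133 (4.02%) overlapped an NCC loop at both anchors, and of the NCC loops 137 (3.49%), which gives 137 pairs on 19 chromosomes. Only 4 of these pairs had identical anchors. Of score 1 interactions, 0.131% in ESC and 0.0969% in NCC overlapped a loop of the other cell type at both anchors. At any score, 952 ESC loops (28.8%) were also joined in NCC and 1090 NCC loops (27.7%) in ESC, against 5.12% and 4.18% for interactions of score 1. The share grew with the score, to 61.2% of ESC and 54.9% of NCC loops with a score of 5 or more. Score 1 interactions spanned longer distances and had shorter anchors, and these shares were not matched for this. FGFR1 read pairs of the other cell type were 5.45 times the distance expectation at ESC loops and 5.27 times at NCC loops. At score 1, they were at 1.96 and 1.81. Over distance and coverage, the loops were at 1.81 and 1.74, and score 1 at 1.15 and 1.12. Both anchors of 74.1% of ESC loops existed in the NCC table, and 45.3% had both anchors but no read pair between them in this distance range. In NCC loops, the corresponding shares were 70.1% and 42.3%. The shares with both anchors but no read pair were close to those at score 1, 47.9% in ESC and 40.5% in NCC. With a floor of 3 read pairs and most scores at 3, a loop missing from the other table was not shown to be absent there.

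Hi-C was measured in separate libraries and did not enter the rule. Hi-C read pairs at a loop were those between anchors of the Hi-C library that overlap both loop anchors, and the expectation was the mean number of read pairs of anchor pairs at the same distance in that library. Both anchors had Hi-C anchors for 3070 of 3306 ESC and 3514 of 3930 NCC loops. Summed over the ESC loops, 18946 Hi-C read pairs were 10.0 times the distance expectation (95% interval 9.87 to 10.2). Over the NCC loops, 20511 read pairs were 9.16 times the expectation (9.04 to 9.29). Interactions of score 1 reached 2.87 times in ESC and 2.70 times in NCC, those of score 2 reached 4.91 and 4.63 times, and loops of score 5 or more 24.6 and 20.1 times. The ratio thus rose with the FGFR1 score in each cell type.

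A large part of this ratio moved with the coverage of the anchors. With an expectation from distance and the read-pair ends of both anchors, Hi-C was 1.37 times expected at ESC loops (1.36 to 1.39) and 1.61 times at NCC loops (1.59 to 1.63). The same ratio was 1.01 in ESC and 1.11 in NCC for score 1, and 1.69 and 2.27 for loops of score 5 or more. The order of the score classes was therefore kept, with ratios much closer to 1. How much of the coverage of an anchor comes from its own loops was not tested.

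**Figure D2:**
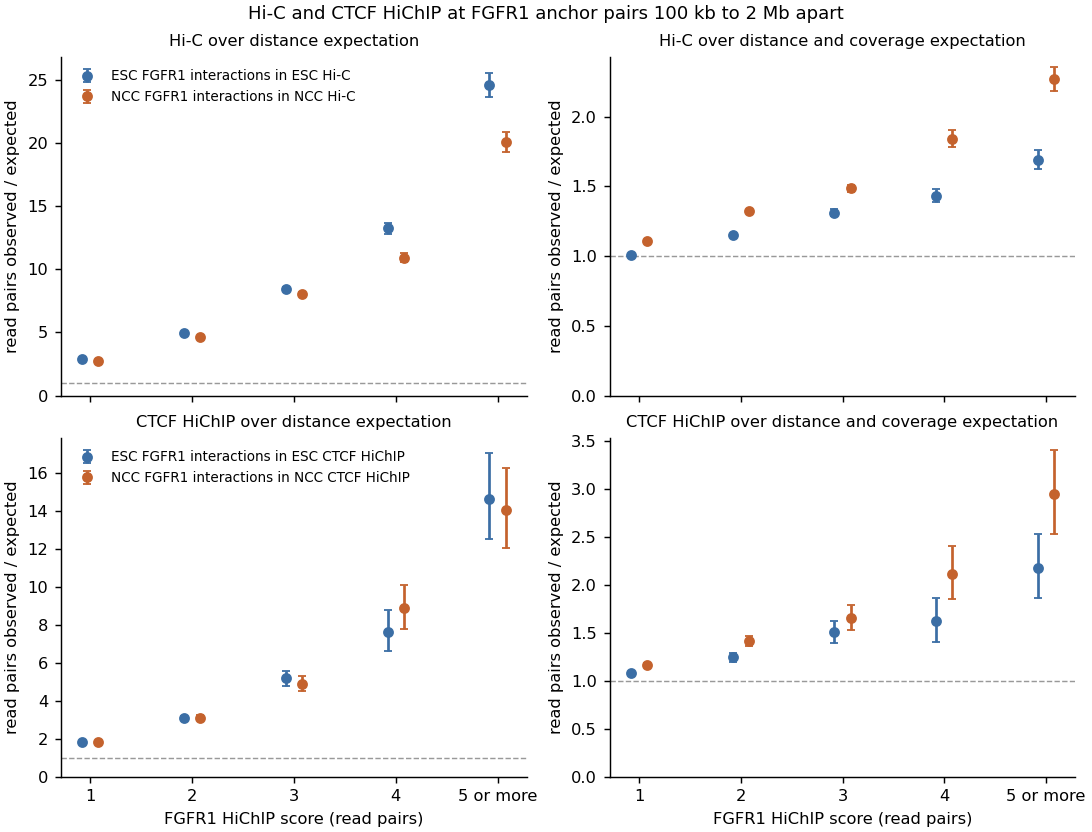
Read pairs of Hi-C (top) and CTCF HiChIP (bottom) at FGFR1 anchor pairs, observed over expected from distance alone (left) and from distance and coverage (right), by FGFR1 score, with exact 95% Poisson intervals. Hi-C over distance climbs between score 1 and score 5 or more from 2.87 to 24.6 (ESC) and from 2.70 to 20.1 (NCC), and over coverage from 1.01 to 1.69 (ESC) and from 1.11 to 2.27 (NCC).

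Single loops varied widely. Hi-C at 2 or more times the distance expectation was found at 2301 of 3070 ESC loops (74.95%), with 32.2% of all ESC FGFR1 interactions in the range doing so. In NCC, 2452 of 3514 loops (69.8%) did, with 30.1% of all. Over the coverage expectation, the shares were 34.1% of ESC and 40.6% of NCC loops, beside 18.7% and 19.3% of all interactions. The median loop had 3 Hi-C read pairs in each cell type, so that the ratio of a single loop is often set by very few read pairs.

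The Hi-C signal was centred on the loops. Around 1035 ESC and 1323 NCC loops of 200 kb or more, Hi-C was averaged in 10 kb steps over the coverage expectation, leaving out a block on chromosome 4 that is described below. At the centre, it was 1.69 times expected in ESC (1.63 to 1.75) and 1.99 times in NCC (1.93 to 2.05). In the corners of the window, away from both anchors, it was 1.05 and 1.21 times. Around interactions of score 1 (every 10th, 43679 in ESC and 53630 in NCC), the centre was at 1.09 and 1.25 times and the corners at 1.01 and 1.11. The intervals of centre and corners did not overlap in any of these groups.

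**Figure D3:**
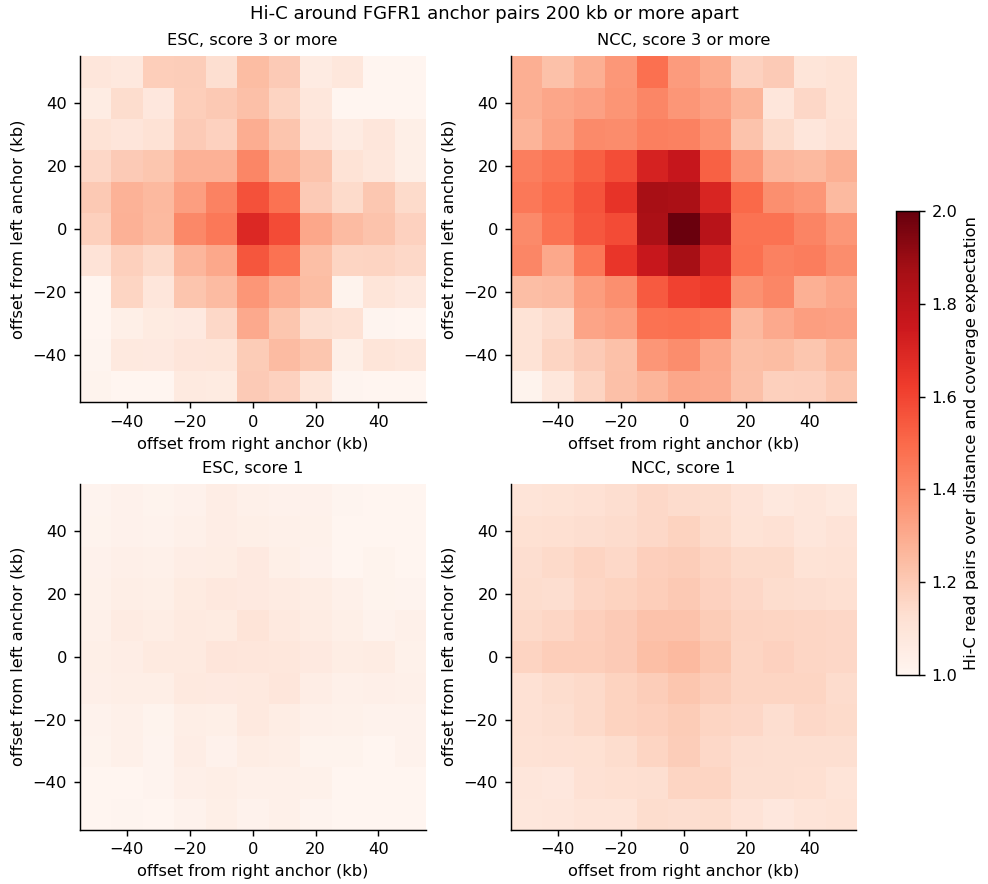
Hi-C read pairs over the distance and coverage expectation in 10 kb bins around FGFR1 anchor pairs 200 kb or more apart, for loops (score 3 or more, top) and score 1 (bottom) in ESC and NCC, with offsets from both anchors on the axes. The central bin stands out at 1.69 in ESC and 1.99 in NCC loops, while at score 1 it reaches 1.09 and 1.25.

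CTCF HiChIP followed the same order at a lower depth. At ESC loops, 1018 CTCF read pairs were 6.25 times the distance expectation (5.88 to 6.65), and at NCC loops 1045 read pairs were 6.21 times (5.84 to 6.60). Score 1 interactions reached 1.86 and 1.84 times. Of loops with CTCF anchors at both ends, 670 of 2150 in ESC (31.2%) and 664 of 2346 in NCC (28.3%) were at 2 or more times this expectation, beside 6.73% and 6.32% of all FGFR1 interactions. At this depth a single CTCF read pair was enough to pass, and the remaining 1480 ESC and 1682 NCC loops had none. These shares therefore only count loops with any CTCF read pair. Over the coverage expectation, the loops were at 1.61 (1.51 to 1.71) and 1.89 (1.78 to 2.01), and score 1 at 1.08 and 1.16. By the same rule of distance and score, CTCF HiChIP gave 777 loops in ESC and 739 in NCC. Of these, 71 ESC CTCF loops (9.14%) and 70 NCC CTCF loops (9.47%) overlapped an FGFR1 loop at both anchors. The overlap covered 2.12% of the ESC and 1.78% of the NCC FGFR1 loops. At least 3 CTCF read pairs in all lay between the anchors of 2.45% of ESC and 2.39% of NCC FGFR1 loops. At score 1, these shares were 0.0294% and 0.0255%.

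Loops found in both cell types had more Hi-C than the others. The 133 shared ESC loops were at 30.2 times the distance expectation in ESC Hi-C (29.0 to 31.5), and the ESC loops that were not shared at 9.17 (9.03 to 9.31). The 137 shared NCC loops were at 29.9 in NCC Hi-C (28.7 to 31.1), and the others at 8.38 (8.26 to 8.51). Over coverage, shared loops were at 1.98 in ESC and 2.16 in NCC, and the others at 1.32 and 1.56. In CTCF HiChIP of the same cell type, shared loops were at 19.4 in ESC and 17.6 in NCC, and the others at 5.48 and 5.57 times the distance expectation. Shared loops also had higher FGFR1 scores, and the part of the score in these differences was not tested.

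CTCF consensus matches were more frequent at loops than at score 1 interactions. At least 1 anchor held a match in 595 ESC loops (18%) and 641 NCC loops (16.3%), against 6.59% and 5.76% at score 1. Longer anchors hold more sequence, but the difference was also present among pairs with a mean anchor length under 3 kb, with 14.8% against 5.09% in ESC and 14.1% against 4.31% in NCC. Shared loops had a match in 29.3% (39 of 133) in ESC.

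Where both anchors held a match, the matches mostly pointed toward each other. Of 37 ESC loops with matches of a single orientation at each anchor, 21 were convergent (56.8%) and 1 divergent. Of 49 such NCC loops, 32 were convergent (65.3%) and 2 divergent. Interactions of score 1 were convergent in 32.9% and divergent in 20.3% in ESC, and 32.6% and 20.96% in NCC. Anchors are shared between some of these loops, so no test was made.

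**Figure D4:**
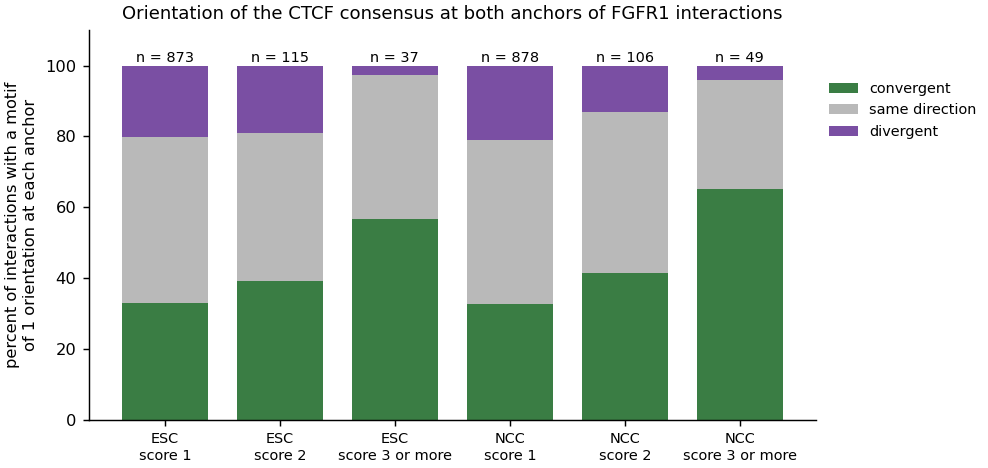
Percent of interactions with a convergent, same-direction or divergent pair of CTCF consensus matches, among those with matches of 1 orientation at each anchor, by cell type and FGFR1 score class. Convergent pairs make up 56.8% of the ESC and 65.3% of the NCC loops, against 32.9% and 32.6% at score 1.

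The 21 convergent ESC loops had 23.2 times the expected Hi-C for their distance (20.6 to 26.03) and 17.6 times the expected CTCF HiChIP (11.8 to 25.3). The 32 convergent NCC loops were at 26.1 (23.9 to 28.4) and 14.7 (10.0 to 20.7). Loops without a match at either anchor, 2711 in ESC and 3289 in NCC, were at 9.09 and 8.01 in Hi-C and at 5.53 and 5.18 in CTCF HiChIP. Over coverage, convergent loops were at 2.19 in ESC and 2.60 in NCC Hi-C, and loops without a match at 1.34 and 1.58. Loops with a consensus match were thus a minority, and those without one still had more Hi-C than expected. The consensus is a pattern of 12 bases with 12245 matches on the autosomes. A loop without a match was therefore not shown to lack CTCF sites.

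The highest FGFR1 score of all joined Psen2 with a site inside Itpkb. Psen2 encodes presenilin 2, a catalytic subunit of γ-secretase, and Itpkb a kinase that phosphorylates inositol trisphosphate. The loop from chr1:180254999-180270064 to chr1:180404682-180414288 had a score of 15 in ESC and 4 in NCC. Hi-C had 35 read pairs in ESC and 46 in NCC, and CTCF HiChIP 6 and 2. The convergent matches printed above lie at these anchors, and the farther Itpkb match lies at the anchor of a second loop with scores of 5 in ESC and 7 in NCC. Of all genes, Psen2 had a start at the anchors of the most loops, 6 in ESC and 6 in NCC, several of which share an anchor and so count the same Hi-C read pairs.

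The other convergent example had more Hi-C read pairs. The Cpsf4l to Sdk2 loop, 105 kb long, had scores of 8 in ESC and 3 in NCC, with 72 and 64 Hi-C read pairs. Sdk2 encodes a cell adhesion molecule of retinal synapses.

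Other loops with high scores in both cell types lay at genes of varied function. Between Sec16a and Egfl7, which encodes a secreted factor of blood vessels, an intergenic pair had scores of 7 in ESC and 11 in NCC, with 40 and 41 Hi-C read pairs. The pair of Morn1 and the start of Faap20, a gene of the Fanconi anemia pathway, had scores of 5 and 10, with 73 and 74 Hi-C and 8 and 10 CTCF read pairs. Ddc and Grb10, which are neighbours in an imprinted region, were joined with scores of 6 and 9 and 25 and 34 Hi-C read pairs. Hi-C did not follow the FGFR1 scores at every such pair. Between Spred2 and Actr2, an intergenic pair had scores of 5 in ESC and 9 in NCC, with 51 and 24 Hi-C read pairs.

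Some of the strongest loops were found mainly in a single FGFR1 table. The pair of a site inside Atp9a and one near Sall4, a zinc finger factor of pluripotent cells, had scores of 12 in ESC and 1 in NCC, while Hi-C had 10 and 18 read pairs. The starts of Mertk, a receptor for the uptake of dying cells, and Tmem87b had scores of 0 in ESC and 8 in NCC, with 19 and 25 Hi-C read pairs. Hi-C was thus present at both pairs in the cell type where FGFR1 HiChIP had 1 read pair or none.

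Gene starts were frequent at the anchors. A start of a protein-coding transcript lay at 1 or both anchors of 1088 ESC loops (32.9%) and 1243 NCC loops (31.6%), against 16.5% and 14.8% at score 1. Both anchors held one in 180 ESC loops (5.44%) and 176 NCC loops (4.48%). CpG islands mark many promoters. A single 200 bp window with the base composition of a CpG island lay at 1 or both anchors of 71.7% of ESC and 68.0% of NCC loops. At score 1, these shares were 43.9% and 39.9%. The loop anchors were longer, and for these windows no share by anchor length was taken. For pairs with a mean anchor length under 3 kb, the share with a gene start was 26.3% against 13.3% in ESC and 24.8% against 12.1% in NCC.

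Loops between gene starts did not stand above the others once coverage was considered. In ESC, the 180 loops with a start at both anchors were at 15.98 times the distance expectation in Hi-C (15.2 to 16.8), and the 2218 loops without a start at 8.76 (8.59 to 8.93). Over coverage, the order was turned, with 1.15 and 1.47. In NCC, loops with a start at both anchors were at 9.40 over distance and 1.29 over coverage, and loops without at 8.15 and 1.65.

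On chromosome 10, the start of Stk11 was joined to the starts of several neighbouring genes in ESC. Stk11 encodes the kinase LKB1, an upstream activator of AMPK. Its loop to the starts of Cnn2 and Tmem259 had FGFR1 scores of 6 in ESC and 3 in NCC and 99 and 122 Hi-C read pairs. These were 178 and 108 times the distance expectation, but 0.925 and 1.19 times the coverage expectation. Stk11 had a start at the anchors of 8 ESC and 2 NCC loops.

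Other pairs of starts included those of developmental regulators. Skor1, a transcriptional corepressor, and Smad3, a TGF-β signal transducer to which Skor proteins bind, lie 613 kb apart and had scores of 3 in ESC and 1 in NCC with 11 and 6 Hi-C read pairs. The starts of Sp9 and Hoxd13 lie 1399 kb apart, and had scores of 3 and 0 with 4 and 0 Hi-C read pairs. Sema3b and Sema3f, which encode secreted axon guidance cues, had scores of 3 and 0 but 35 and 56 Hi-C read pairs.

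In all, 1098 genes had a start at an ESC loop anchor, which is 5.3% of 20722 autosomal protein-coding genes, and 1206 at an NCC loop anchor (5.82%). Of these, 218 were found in both, or 19.9% of the ESC and 18.1% of the NCC genes. Loops of either cell type reached 2086 genes, or 10.1% of all. The gene lists below are read against these shares, and no test was made on them.

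Hox genes and their cofactors had the highest share of the 15 lists over both cell types together and in NCC (22.9%). In ESC their share was 10.4%, below neural induction (17.1%), Polycomb-type developmental regulators (12.8%) and pluripotency genes (11.8%). Hox genes specify positions along the body axis, and the 3′ genes of the clusters respond early to retinoic acid. Of 48 genes, 13 lay at a loop of either cell type (27.1%), 5 in ESC and 11 in NCC. Polycomb-type developmental regulators had 18 of 94 (12 in ESC and 7 in NCC), genes of neural induction 7 of 35 (6 and 2) and Wnt pathway genes 11 of 56 (5 and 7). Retinoid pathway genes had 4 of 25 (1 and 3), pluripotency genes 5 of 34 (4 and 3), architectural and cohesin proteins 2 of 14, the FGF pathway 2 of 25, both in ESC, and markers of endoderm and mesoderm 2 of 21, both in NCC. Ribosomal protein genes (6 of 75), zinc finger genes (35 of 415) and clustered protocadherins (5 of 57) were close to the share of all genes. Olfactory receptors (9 of 1127), keratin and vomeronasal genes (5 of 442) and histone genes (2 of 67) were below it. Several listed genes share an anchor, so that counts of genes exceed counts of independent anchors.

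**Figure D5:**
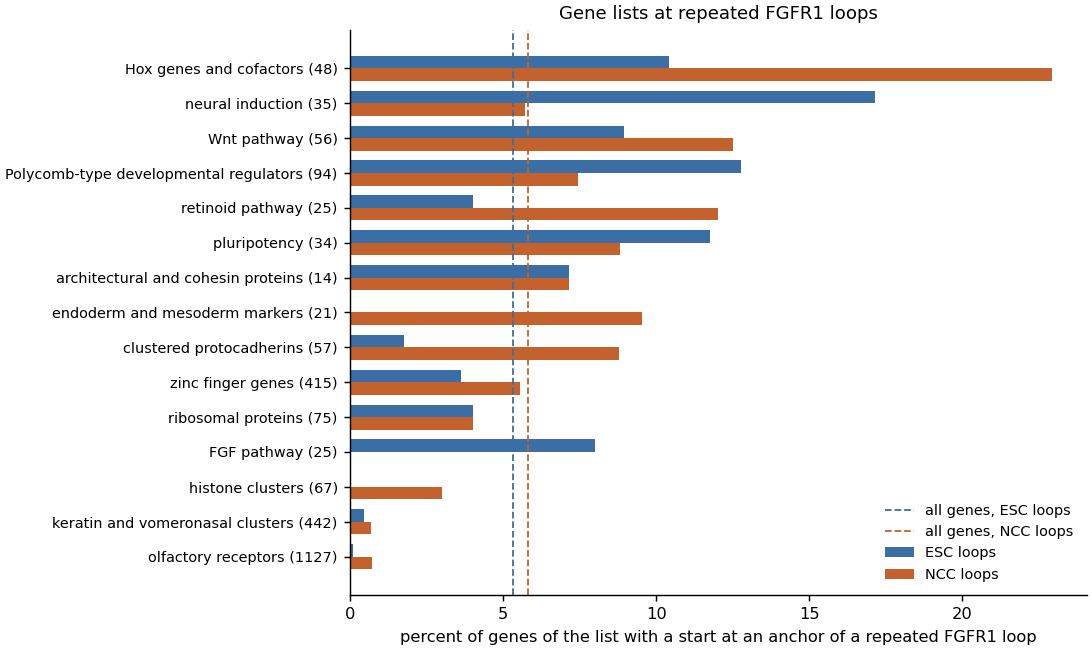
Percent of the genes of each list with a start at an anchor of a loop, for ESC and NCC, with dashed lines at the share of all autosomal protein-coding genes (5.3% in ESC and 5.82% in NCC). The bar of Hox genes and cofactors in NCC is the longest, with 11 of 48 genes.

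The Hox clusters themselves held more loops than their number of interactions would give at the average rate. Interactions with an anchor at a Hox cluster numbered 698 in ESC, 10 of them loops (143 per 10000), and 736 in NCC, 20 of them loops (272 per 10000). Over all interactions in the range, the rates were 52.0 and 51.1 per 10000. For all interactions of 100 to 200 kb, they were 127 and 125, and the Hox rates were not matched for distance. Hoxa had 0 loops among 130 interactions in ESC and 1 among 160 in NCC. Hoxb had 3 loops in ESC and 9 in NCC, Hoxc 5 and 8, and Hoxd 2 and 2. None of them had both anchors within a cluster.

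Single loops at Hox genes differed in their Hi-C. Hoxc9 had the most, with 6 loops in NCC and none in ESC, 104 to 297 kb long, and Hoxb2 and Hoxb3, whose starts share an anchor, had 4 NCC loops toward Skap1 and Snx11. Between the anchors of these Hoxc9 loops, Hi-C ranged from 2 to 64 read pairs in ESC and from 7 to 65 in NCC.

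Hi-C read pairs of the same anchor pair were compared between NCC and ESC with a two-sided exact binomial test and Benjamini-Hochberg adjustment over all 37238 FGFR1 anchor pairs with at least 10 Hi-C read pairs. Of these, 5.62% were higher in NCC and 4.42% higher in ESC at an adjusted p-value under 0.05. Among 2352 loops tested, 126 (5.36%) were higher in NCC and 98 (4.17%) in ESC, which is close to the shares of all pairs. Of 1175 ESC loops, 48 were higher in NCC and 55 in ESC. Of 1177 NCC loops, 78 were higher in NCC and 43 in ESC.

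These calls moved with the coverage of the anchors. With the distance and coverage expectation of each library as an offset, none of the 2352 loops was called by the exact binomial test, and 88 had an unadjusted p-value under 0.05. Over all pairs, this offset left 0.00269% higher in NCC and 0.00537% higher in ESC. The coverage of an anchor includes the read pairs of the loop under test. A lack of calls with this offset therefore does not show a lack of difference. Hi-C anchors were called separately in each library, so a pair can also lose its read pairs through a shifted anchor. In windows of 20 kb around the anchor midpoints, which do not use the called anchors, 180 of 5083 loops were higher in NCC (3.54%) and 122 in ESC (2.40%). Of all 244417 pairs, 1.47% and 1.08% were. The loop shares were thus higher in the windows, and the part of the number of read pairs per window in this was not tested. With windows and the coverage offset together, 1 loop was called and 206 had an unadjusted p-value under 0.05, beside 0.000409% of all pairs called higher in NCC and 0.00532% in ESC.

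That loop joined the starts of Nkx2-1 and Pax9, transcription factor genes of the forebrain, thyroid and lung and of the pharyngeal pouches and skeleton. They lie 159 kb apart on chromosome 12, with FGFR1 scores of 5 in ESC and 0 in NCC. Hi-C had 18 read pairs in ESC and 2 in NCC between the anchors, and 44 and 4 in the 20 kb windows. The log2 ratio of NCC to ESC in the windows was -3.29 (exact binomial test, adjusted p = 2.07e-06), and -2.70 with the coverage offset (adjusted p = 0.0422). Hi-C was thus higher in ESC, where the FGFR1 loop was found. Between the called anchors with the coverage offset, the adjusted p was 1.

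Several ESC loops of developmental genes had more Hi-C in ESC both between the anchors and in the windows, but not with the coverage offset, where each adjusted p was 1 between the anchors. The loop of Sox2, a core factor of pluripotent and neural progenitor cells, reached 109 kb and had FGFR1 scores of 3 in ESC and 0 in NCC. Its Hi-C was 53 read pairs in ESC and 6 in NCC (log2 -3.03, exact binomial test, adjusted p = 7.36e-08), and 64 and 16 in the windows (adjusted p = 4.30e-05). The loop of Zic2, a zinc finger factor of the neural plate, had 53 and 3 read pairs, and 53 and 20 in the windows. One of the ESC loops of Otp, a homeobox gene of the hypothalamus, had 16 and 1, and 28 and 3 in the windows.

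The ESC loop of Myc, 107 kb long, had 31 Hi-C read pairs in ESC and 9 in NCC, and 53 and 12 in the windows. Myc encodes a growth-promoting transcription factor. The ESC loop of Rpl4, a ribosomal protein gene, showed the same direction with 34 and 3 read pairs, and 50 and 21 in the windows. Of 47 ESC loops at listed genes, 27 were tested, of which 6 were higher in ESC and 0 in NCC, beside 4.42% and 5.62% of all pairs. The same 6 were called in the windows too, where 41 were tested and 7 were higher in ESC and 1 in NCC. In the windows, 1.08% of all pairs and 2.96% of all ESC loops were higher in ESC. Higher in NCC there were 1.47% of all pairs and 2.87% of all ESC loops. With the coverage offset, 0 were called between the anchors and 1 in the windows.

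Of the NCC loops of retinoid pathway genes, 1 of the 3 of Nr2f2 and that of Dhrs3 had more Hi-C in NCC. Nr2f2 encodes an orphan nuclear receptor that retinoic acid induces, and Dhrs3 a retinaldehyde reductase. The Nr2f2 loop of 149 kb had FGFR1 scores of 0 in ESC and 3 in NCC, with 3 and 25 Hi-C read pairs, and 5 and 26 in the windows (exact binomial test, adjusted p = 0.00122 and 0.0143). The Dhrs3 loop had scores of 0 and 4, with 6 and 22 Hi-C read pairs and 12 and 40 in the windows. With the coverage offset, both had an adjusted p of 1, and the log2 ratio of Dhrs3 changed sign to -0.54.

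Hes1, a Notch target that keeps neural progenitors undifferentiated, had 1 ESC and 7 NCC loops, and those of NCC share an anchor. The NCC loops were 130 to 337 kb long, with 5 to 16 Hi-C read pairs in ESC and 4 to 27 in NCC. The strongest Wnt7a loop, of another secreted Wnt ligand, had FGFR1 scores of 0 in ESC and 7 in NCC, with 46 and 53 Hi-C and 9 and 11 CTCF read pairs. Hi-C and CTCF HiChIP at this pair were thus present in ESC, where FGFR1 HiChIP had no read pair.

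Of 67 NCC loops at listed genes, 40 were tested, of which 4 were higher in NCC and 2 in ESC, beside 5.62% and 4.42% of all pairs. In the windows, 62 were tested, 6 were higher in NCC and 0 in ESC, and 3 were higher in NCC in both. Higher in NCC in the windows were 1.47% of all pairs and 4.16% of all NCC loops. The shares higher in ESC were 1.08% and 1.89%. With the coverage offset, 0 were called between the anchors and 0 in the windows. Some calls depended on how the anchors were matched. The loop of Hoxc9 that reaches 200 kb had 64 Hi-C read pairs in ESC and 30 in NCC between the anchors, and 68 and 124 in the windows, so its direction was turned, with an adjusted p of 0.0133 and 0.00620. The loop of Wnt9a, a secreted Wnt ligand, had 31 and 9 between the anchors and 65 and 53 in the windows (exact binomial test, adjusted p = 0.0143 and 0.81). The loop of Tbx2, a T-box factor of heart and limb, with Bcas3 had 7 and 14 and then 14 and 63 (exact binomial test, adjusted p = 0.48 and 9.98e-06).

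The largest fitted Hi-C changes were at loops with 0 read pairs in 1 library, so no fold is given. A loop within Gm20388 on chromosome 8 had 0 Hi-C read pairs in ESC and 73 in NCC, but 64 and 130 in the windows. A loop from the start of Cdkn1a, the gene of the cell cycle inhibitor p21, into Cpne5 had 11 and 0, and 41 and 7 in the windows. The loop from within Foxp4 had 18 and 0, and 44 and 16 in the windows. Of the 10 loops with the largest change, 5 each way, none had 0 in the windows.

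Summed over the loops, Hi-C differed little between cell types. At ESC loops measured in both, the log2 ratio of NCC to ESC was -0.02 (-0.05 to 0.01), and at NCC loops 0.15 (0.12 to 0.18). Over the coverage expectation, it was 0.08 and 0.09. In CTCF HiChIP, the ratio was 0.01 (-0.13 to 0.15) at ESC loops and 0.26 (0.12 to 0.40) at NCC loops. CTCF read pairs of single loops were too few to compare, since only 8 anchor pairs, 4 of them loops, reached 10 read pairs. None was called by the exact binomial test, and none had an unadjusted p-value under 0.05.

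Some of the longest loops lay in clusters of related genes. A block of zinc finger genes at 145 to 148 Mb of chromosome 4 held 19 ESC and 16 NCC loops, 408 and 448 per 10000 interactions there. Its loops had 21.8 times the Hi-C expected from distance and coverage in ESC and 23.4 times in NCC. The pair near Zfp990 and Zfp987, 609 kb apart, had FGFR1 scores of 13 in ESC and 6 in NCC, with 10 and 20 Hi-C read pairs. A pair 1793 kb apart in this block had scores of 11 and 1, with 33 and 20 Hi-C read pairs. These genes are near copies of each other, so that read pairs may be placed at the wrong copy, and the part of this in the loops was not tested. Without the block, Hi-C was 9.95 times the distance expectation over ESC loops and 9.13 times over NCC loops.

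Of the 9 ESC loops of 1 Mb or more, 5 lay in this block, 1 in the histone gene cluster of chromosome 13 and 3 elsewhere. Of the 27 NCC loops of this length, 3 lay in the block, 4 in the histone cluster and 20 elsewhere. The histone cluster, which holds many near-identical genes, thus had 14.8% of the long NCC loops and 0.111% of NCC interactions of score 1 and the same length. The 20 NCC loops elsewhere had 6 Hi-C read pairs in all, which is 8.19 times the distance expectation (3.01 to 17.8) and 4.22 times the coverage expectation (1.55 to 9.18). Among them, 16 had no Hi-C read pair, and some of those had no Hi-C anchors at 1 or both ends and so were not measured.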

How the data were processed

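Hi-C, FGFR1 HiChIP and CTCF HiChIP were measured in ESCs and NCCs, with 2 replicates per group and 12 samples in all. The deposited values are counts, namely how many read pairs joined each anchor pair. Per the study's methods, the authors removed duplicates and kept valid pairs with HiC-Pro and grouped them into anchors with hichipper, all connection types included, on mm10. Tool versions are not given in the sources used here. Each of the 6 deposited tables holds both replicates merged, and no q-value filter was applied here.

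From these counts, loops were taken as autosomal anchor pairs 100 kb to 2 Mb apart with a score of at least 3. Loops of both tables were shared where both anchors overlapped by at least 1 bp. Expected read pairs were the mean over pairs of anchors at the same distance, in 60 distance bins, without or with scaling by the read-pair ends of both anchors. Gene starts are those of 20722 autosomal protein-coding genes, CpG islands were called in 200 bp windows, and a 12-base CTCF consensus was searched on both strands. Hi-C of NCC and ESC was compared by exact binomial tests scaled to the read pairs in range, with a pseudocount of 0.5 in log2 ratios. Totals per library limit the precision, and read pairs are not replicates. Scripts (Python 3.11.15, numpy 2.4.6, pandas 2.3.3, scipy 1.17.1) were tested on simulated data.

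Loops named are the 10 with the highest score in each cell type, the 10 shared loops with the highest summed score, the 10 with gene starts at both anchors and the most Hi-C over expectation, the 5 largest changes each way, and up to 5 genes per list. Other loops illustrate a convergent pair or a count and were chosen after their values were seen. The members and gene lists were chosen with earlier results of these data known. Some loops that meet this rule are not reported here. Alternatives are given in the closing section.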

Additional observations from a re-analysis of the deposited data

How the results depend on the processing

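Of 80 alternatives, 37 gave a value within the counting error or within 1.5 times the count, and 43 moved it. The former include all settings of the CTCF comparison of NCC with ESC, which had 0 calls throughout with 8 anchor pairs at 10 or more read pairs and says nothing about stability. With a score of 2, 4 or 5 or more, ESC loops numbered 32322, 613 and 152 and NCC loops 38619, 695 and 182. Without the 1% of anchors with the most read-pair ends, 2197 ESC loops remained. The shared percent was 8.11 in ESC and 7.23 in NCC with anchors extended by 5 kb, 28.8 and 27.7 at any score in the other cell type, and 6.69 and 5.90 with a score of 4 or more in both.

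Hi-C over expectation was 1.37 in ESC and 1.61 in NCC with coverage, 16.2 and 13.6 for a score of 4 or more, 7.95 and 7.79 without the 1% of anchors, 7.45 and 6.99 with midpoints inside the anchors, and 4.88 and 4.68 in 20 kb windows. CTCF HiChIP was 1.61 and 1.89 with coverage, 9.78 and 10.6 for a score of 4 or more, and 4.15 and 4.26 in windows. A gene start lay at 49.6% of ESC and 45.5% of NCC loops within 5 kb, and at 36.1% and 35.5% for a score of 4 or more. A CTCF match lay at 22.3% and 23.5% for a score of 4 or more and at 21.3% and 19.2% with anchors extended by 1 kb.

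In the comparison of NCC with ESC Hi-C, loops called higher in NCC and in ESC numbered 56 and 44 with no minimum of read pairs, 0 and 0 with the coverage offset, and 0 and 1 in 20 kb windows with that offset. The offsets and the windows were chosen after seeing the data. Beyond what each setting changes by its construction, the cause was not tested. No paired analysis was possible because the deposited tables hold the replicates of each group merged, and for the same reason no replicate could be left out. Most loops rest on 3 FGFR1 read pairs and few Hi-C read pairs, so that single loops are imprecise.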
